A study of Mus musculus with 4 samples.

Results

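Guanylate-binding proteins (GBPs) are large GTPases of the dynamin superfamily whose genes are switched on by interferons. In infected cells they bind and hydrolyse GTP, assemble on the membranes of vacuoles that hold pathogens or on bacteria themselves, and help to open these for destruction and for sensing by inflammasomes. Several carry a lipid anchor added by prenylation. The genes described here are Gbp2, Gbp3, Gbp4, Gbp5, Gbp6, Gbp7, Gbp8 and Gbp9, 8 of the 26561 genes in the count table, matched by Ensembl identifier to their GENCODE M21 symbols. They were chosen because of how they stood in the comparison of irradiated with unirradiated cells, so their change is a description: the calls and SEs given for them come from the fit over all genes and are no independent evidence.

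All libraries came from MC38, a mouse colon adenocarcinoma line, labelled epithelial and wild type (WT). The unirradiated group (Non-IR) holds 2 libraries. The irradiated group (IR) holds 2 libraries from cells given X-rays in 1 dose of 30 Gy, with RNA taken 60 h later. No harvest time for the unirradiated cells is given in the sources used here, so time in culture and density cannot be told apart from irradiation. The labels do not say whether replicates were separate cultures, so p-values reflect library-to-library spread alone, which may be technical.

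Total counts ran from 26059171 to 29881492 per library, and mitochondrial transcripts held 2.19% and 2.27% of the counts in the unirradiated and 2.59% and 2.56% in the irradiated libraries. Genes with counts above 0 numbered 19413 and 19531 in the unirradiated and 22713 and 22663 in the irradiated libraries. More genes were thus detected after irradiation in general. How far this bears on genes given below with 0 counts before irradiation was not tested. The 8 epithelial markers summed to 38.5 and 36.5 CPM (counts per 1000000 of the scaled library total) before and 75.9 and 70.2 after irradiation, nearly all of it Cdh1. Cdh1 had 998, 1009, 2173 and 1798 counts (unirradiated 1 and 2, then irradiated 1 and 2) and rose 1.99-fold (edgeR adjusted p = 2.38e-48). Krt8 had 6, 3, 30 and 20 counts and rose (edgeR adjusted p = 0.00232), a call lost without unirradiated replicate 2 (edgeR adjusted p = 0.0589) or irradiated replicate 1 (edgeR adjusted p = 0.112). Krt19, the third tested, did not pass, and Epcam with 0, 0, 0 and 1 counts and Krt18 with 0, 0, 2 and 3 were near 0. The summed fibroblast markers stood at 1205 and 1200 CPM before and 1779 and 1797 after irradiation, most of it Col1a2 and Col3a1. Of these markers 6 of 6 rose, where 30.4% of all tested genes did. Macrophage markers, of which 6 of 8 had a row, summed to 10.8 and 8.73 CPM before and 45.8 and 39.5 after. The part of these markers in the results below was not tested. Of the 4 macrophage markers tested 2 rose, Cd68 with 127, 112, 1120 and 840 counts (edgeR adjusted p = 7.46e-122) and Lyz2 with 0, 2, 23 and 20 (edgeR adjusted p = 5.87e-05). Cd14 with 159, 135, 195 and 168 counts and Ptprc with 10, 6, 24 and 17 did not pass, and Adgre1 and Csf1r had at most 2 counts in any library. T and natural killer cell markers, 4 of 8 with a row, summed to 0.473 and 0.103 CPM in the unirradiated and 0.437 and 0.188 in the irradiated libraries, with Cd3e, Cd3g and Klrb1c at 0 or 1 count. The B cell markers reached at most 0.640 CPM, and the endothelial markers summed to 2.58 and 1.92 CPM before and 6.21 and 6.55 after, with 2 of 2 tested genes up and Kdr at 0, 0, 3 and 3 counts.

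In GENCODE M21 (GRCm38) the members lie in 2 clusters. On chromosome 3, plus strand, are Gbp5 (ENSMUSG00000105504, 142493978 to 142522344), Gbp7 (ENSMUSG00000040253, 142530342 to 142550149), Gbp3 (ENSMUSG00000028268, 142560026 to 142573209) and Gbp2 (ENSMUSG00000028270, 142620602 to 142638008), in that order, with the relative Gbp2b between Gbp3 and Gbp2. On chromosome 5, minus strand, are Gbp8 (ENSMUSG00000034438, 105014150 to 105139540), Gbp9 (ENSMUSG00000029298, 105077630 to 105139539), Gbp4 (ENSMUSG00000079363, 105115767 to 105139586) and Gbp6 (ENSMUSG00000104713, 105270702 to 105293698), with Gbp10 and Gbp11 beside Gbp6. The annotated spans of Gbp8, Gbp9 and Gbp4 overlap, because each has a transcript that starts at the same distal exon. That exon makes up 61 of the 3443 exon bases of Gbp8.

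The promoters of the chromosome 3 members are shown because each holds the letters of an interferon-responsive element. Interferon drives GBP genes through the interferon-stimulated response element (ISRE) and the gamma-activated site (GAS). The RefSeq promoter table (GRCm38.p6) held a window for 4 of the 8 members, Gbp2, Gbp3, Gbp5 and Gbp7. The 250 bases upstream of each start were searched on both strands for 2 copies of TTTC spaced by any 2 bases (ISRE-type) and for TTCNNNGAA (GAS-type). Capitals mark a match, the plus strand is shown, and the runs of Gbp5, Gbp7 and Gbp3 stop at the RefSeq start or at an annotated exon before it. For Gbp2 and Gbp2b only the 30 bases around the match are shown.
Gbp5 chr3:142496684-142496899: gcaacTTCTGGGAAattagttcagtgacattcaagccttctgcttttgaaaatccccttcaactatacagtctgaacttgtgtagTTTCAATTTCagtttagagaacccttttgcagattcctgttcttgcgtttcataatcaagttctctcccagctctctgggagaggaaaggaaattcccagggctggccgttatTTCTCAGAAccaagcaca
Gbp7 chr3:142530086-142530335: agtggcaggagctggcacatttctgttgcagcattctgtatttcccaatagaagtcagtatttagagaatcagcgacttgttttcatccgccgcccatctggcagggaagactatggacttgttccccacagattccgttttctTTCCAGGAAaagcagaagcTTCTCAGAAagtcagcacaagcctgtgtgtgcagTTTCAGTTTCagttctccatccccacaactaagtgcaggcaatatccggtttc
Gbp3 chr3:142559794-142560015: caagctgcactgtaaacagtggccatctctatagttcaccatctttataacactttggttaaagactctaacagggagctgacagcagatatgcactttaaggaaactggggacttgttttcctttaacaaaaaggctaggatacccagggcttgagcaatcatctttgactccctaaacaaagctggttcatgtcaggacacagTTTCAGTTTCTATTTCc
Gbp2 chr3:142620594-142620623: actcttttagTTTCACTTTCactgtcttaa
Gbp2b chr3:142594700-142594729: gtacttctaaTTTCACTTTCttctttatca

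Every one of these 5 genes had an ISRE-type match in a window, as had 936 of 27025 genes (3.46%). By window, 978 of 32851 of the same length hold one (2.98%). Distances run to the start at the end of the searched window. In Gbp5, Gbp3, Gbp2b and Gbp2 a RefSeq start or an annotated exon begins before that end. In Gbp3 there are 2 matches that overlap each other, 30 and 36 bases upstream of the window's start site. A second window of Gbp3 holds neither motif. For Gbp7 the match ended 44 bases upstream of the start, for Gbp2 50 bases and for Gbp5 156 bases. In Gbp2 the match lies inside the first exon of a GENCODE transcript that begins further upstream than the RefSeq start. GAS-type matches, found in 7.02% of windows, were present in Gbp5 and Gbp7, 2 in each, and in none of the other windows. No ISRE-type match overlapped a GAS-type match in these windows. Outside the GBP family, 34 of 356 genes that rose at least 8-fold had an ISRE-type match in a window. Of all 10582 tested genes with a window 324 had one (9.55% and 3.06% of genes). For GAS-type matches these were 38 and 757 genes (10.7% and 7.15%). Gbp2b carries the letters as well, 128 bases upstream of its GENCODE start, and had 0, 0, 0 and 2 counts. A match of letters is a description and not evidence of binding.

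Transcripts of the 8 members together were scarce in unirradiated cells, with 102 and 87 counts, and numbered 4526 and 4048 after irradiation. This is 3.71 and 2.98 CPM against 152 CPM in both irradiated libraries. The mean level was 3.35 ± 0.517 CPM before and 152.3 ± 0.316 after (SD, n = 2 in each group), 45.5-fold higher. The groups did not overlap for any of the 8 members, with irradiated cells higher, which also held for 39.7% of the 15298 genes with enough counts to be tested. All 8 members had enough counts, through their irradiated libraries, and 8 were higher at an adjusted p under 0.05, a call made for 30.4% of tested genes. Their fitted rise was at least 8-fold for 8 of 8, against 3.43% of tested genes. Since the members were chosen from this contrast, none of these counts is read as a result. In bulk RNA, more cells with a transcript and more transcript per cell cannot be told apart.

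**Figure D1:**
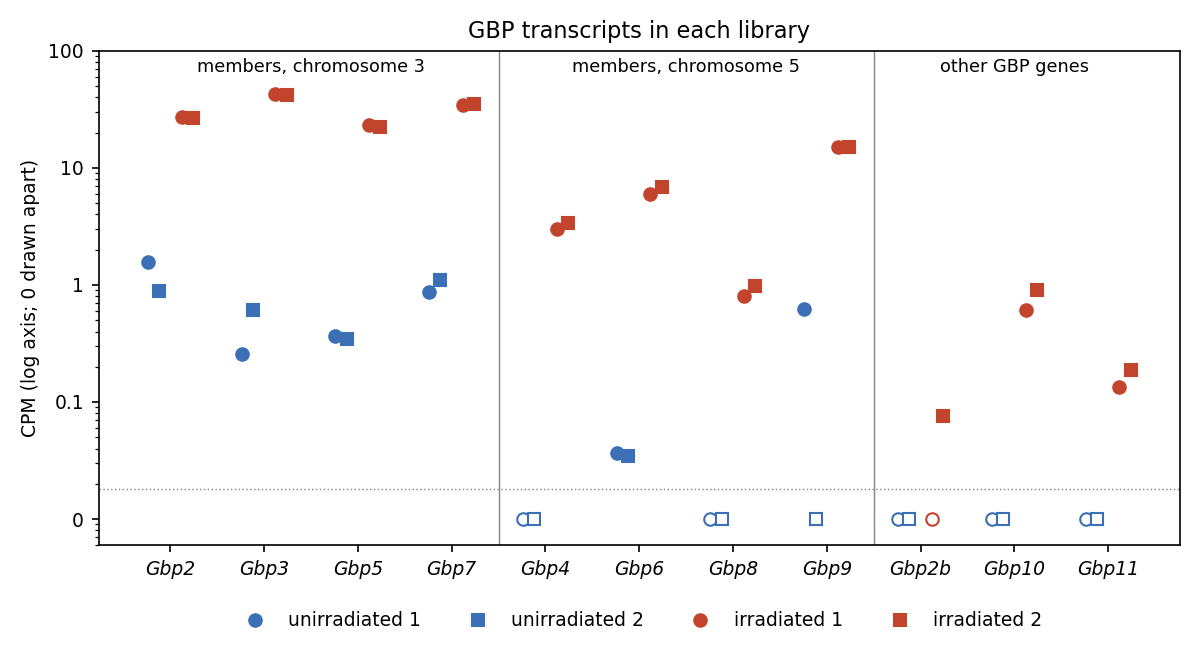
CPM (log axis, with 0 drawn apart as open symbols) of each GBP gene in the 4 libraries, unirradiated in blue and irradiated in red. The chromosome 3 members sit between 22.3 and 42.4 CPM in irradiated cells, and the chromosome 5 members between 0.806 and 15.1.

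The chromosome 3 members carried most of the family's transcripts. Their sum went from 3.06 and 2.95 CPM to 127 and 126 CPM, and that of the chromosome 5 members from 0.655 and 0.0343 to 24.8 and 26.3 CPM. Gbp3 had 7 and 18 counts in the unirradiated and 1263 and 1122 in the irradiated libraries. Its mean went from 0.436 ± 0.256 to 42.3 ± 0.115 CPM (SD, n = 2), a 97.2-fold difference that was 68.0-fold without unirradiated replicate 1 and 165-fold without unirradiated replicate 2. The irradiated libraries of Gbp3 differed little from each other, so the uncertainty of its fold lies in the few unirradiated counts. Gbp7, a protein linked to NADPH oxidase assembly on bacterial vacuoles in macrophages, had 24 and 32 against 1017 and 932 counts. That is 0.985 ± 0.158 against 34.6 ± 0.668 CPM, or 35.2-fold (log2 fold change 5.13, SE 0.17).

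Gbp2, a prenylated member that coats parasite vacuoles, was the most abundant in unirradiated replicate 1. Its counts were 43 and 26 without and 814 and 703 with irradiation, or 1.23 ± 0.477 against 26.9 ± 0.610 CPM, 21.9-fold. Among the 6 members with counts in unirradiated cells this was the smallest fold. Gbp5, a prenylated member known for promoting assembly of the NLRP3 inflammasome, had 10 counts in each unirradiated library and 693 and 592 in the irradiated ones. Its mean went from 0.353 ± 0.0151 to 22.8 ± 0.692 CPM, 64.5-fold with an SE of 0.23 on the log2 scale. The replicates of Gbp5 lay close in both groups, and leaving out any library kept its fold between 62.2 and 65.8. With 10 counts in each unirradiated library, that range leaves out counting error and is narrower than the SE.

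On chromosome 5, Gbp9 was the most abundant member after irradiation and the least even before it. Its counts were 17 in unirradiated replicate 1, 0 in unirradiated replicate 2, and 447 and 402 in the irradiated libraries. The fold of the means was 48.8, but it was 24.2 without unirradiated replicate 2 and at least 145 without unirradiated replicate 1, where the floor of 3 counts over the group replaces the 0. Gbp6 had a single count, 1, in each library before irradiation, then 178 and 181. The ratio of its counts, scaled to library size, was 181, with exact (Clopper-Pearson) 95% limits of 49.6 and 1497, for counting error alone. Gbp4 went from 0 and 0 to 90 and 90 counts, at least 60.4-fold higher with the 0 replaced by the same floor. Gbp8 was also at 0 in unirradiated cells and had 24 and 26 counts after irradiation, at least 16.8-fold higher. For Gbp4 and Gbp8 the size of the fold is therefore set by depth. Their fitted log2 fold changes, 9.50 and 7.66, enter the figures and the median. These depend on the prior count and are not read as the size of the rise.

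The make-up of the family was nearly the same in both irradiated libraries. Gbp3 held 27.9% and 27.7% of the members' counts, Gbp7 22.5% and 23.0%, Gbp2 17.98% and 17.4%, Gbp5 15.3% and 14.6%, and Gbp9 9.88% and 9.93%. Gbp6 held 3.93% and 4.47%, Gbp4 1.99% and 2.22%, and Gbp8 0.530% and 0.642%. Before irradiation, when the members had 102 and 87 counts in all, shares were uneven between replicates, as for Gbp2 with 42.2% and 29.9% and Gbp3 with 6.86% and 20.7%.

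Levels of different genes can be compared only per length. Divided by all annotated exon bases, irradiated levels in CPM per kilobase fell in the order Gbp3 (12.99 and 12.95), Gbp2 (10.9 and 10.5), Gbp7 (6.09 and 6.25), Gbp5 (3.51 and 3.36), Gbp9 (2.90 and 2.93), Gbp6 (1.00 and 1.15), Gbp4 (0.403 and 0.452) and Gbp8 (0.234 and 0.284). No 2 neighbours in this order overlapped in their libraries, although Gbp5 and Gbp9 came close. With the length of the longest coding transcript in its place, Gbp5 at 7.46 ± 0.227 stood above Gbp7 at 6.17 ± 0.119 CPM per kilobase (SD, n = 2), and the other members kept their ranks. The transcript isoform in use was not measured here.

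**Figure D2:**
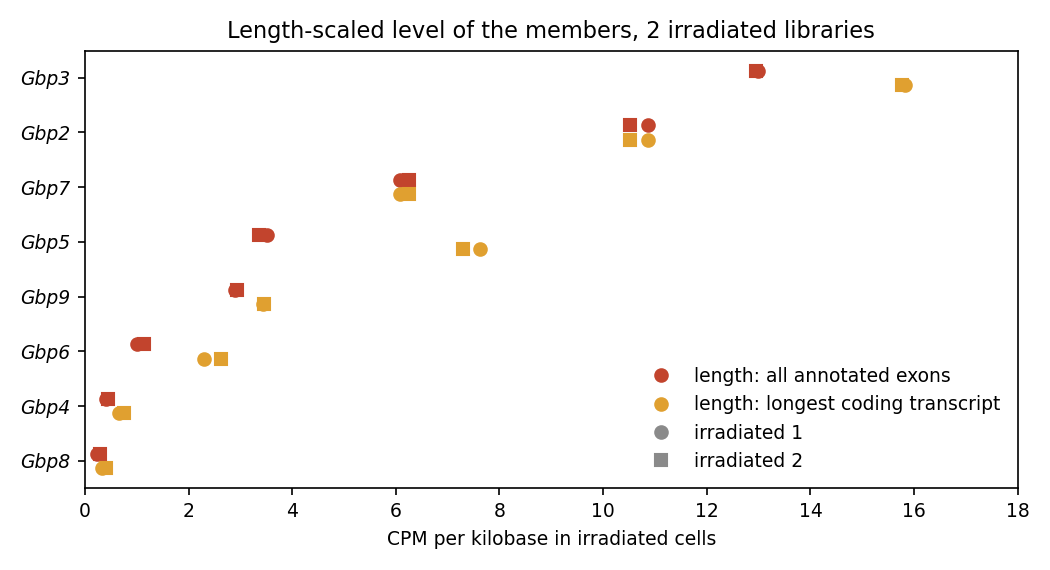
CPM per kilobase of each member in the 2 irradiated libraries, with length taken as all annotated exons (red) or the longest coding transcript (yellow). Gbp3 and Gbp2 lead on both lengths, and Gbp7 and Gbp5 change places.

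Gbp6 shares more transcript sequence with other genes than any other of the 8 members. Of its distinct 50-base runs of transcript sequence, 70.7% also occur in another GBP gene or in Gm43302, an annotated gene that shares 1726 of the 5954 exon bases of Gbp6 and has no row in the table used here. Reads from such runs may be dropped or divided, depending on the counting. For Gbp8 the shared percentage was 18.1%, for Gbp9 8.05% and for Gbp4 7.53%. The chromosome 3 members are more distinct, with 3.75% for Gbp3, 2.26% for Gbp7, 2.03% for Gbp2 and 0 shared runs for Gbp5. In Gbp7, 637 of 5614 exon bases coincide with the processed pseudogene Gm43802.

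The table held 3 other GBP genes. Of the 50-base runs of Gbp10, 84.1% also occur in another GBP gene or in Gm43302, and 73.3% occur in the member Gbp6. Gbp10 was not detected before irradiation (0 and 0 counts) and had 18 and 24 counts after it, at least 14.1-fold higher (adjusted p = 1.93e-06, edgeR's quasi-likelihood test with Benjamini-Hochberg adjustment over all tested genes). How far these counts came from reads of Gbp6 was not tested. Gbp11, annotated as a polymorphic pseudogene, had 0, 0, 4 and 5 counts. Gbp2b, the mouse gene once called Gbp1, had 0, 0, 0 and 2 counts although it lies between Gbp3 and Gbp2. Gbp11 and Gbp2b were below the filter on low counts and were not tested.

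Genes beside the clusters went both ways. Annotated genes without a Gbp symbol within 500 kb of a cluster numbered 35, including Gm43302, which shares exon bases with Gbp6 and had no row. Of the 35, 24 had a row and 13 were tested. Of these 13 genes 4 rose and 4 fell, where 30.4% of all tested genes rose and 30.3% fell. Their median log2 fold change was 0.04, against 0.01 over all tested genes. Kyat3, a kynurenine aminotransferase gene that starts 207.1 kb from the start of the chromosome 3 cluster, fell 2.82-fold, from 8.15 ± 0.873 to 2.90 ± 0.419 CPM (log2 fold change -1.49, SE 0.21, edgeR adjusted p = 1.80e-11). The non-coding genes 9530052C20Rik and Gm32051 rose, with log2 fold changes of 1.61 (SE 0.33, edgeR adjusted p = 3.33e-06) and 0.98 (SE 0.41, edgeR adjusted p = 0.029). The call of Gm32051 was lost without unirradiated replicate 1 (edgeR adjusted p = 0.26) or irradiated replicate 1 (edgeR adjusted p = 0.272), with no filter (edgeR adjusted p = 0.0521) and with DESeq2 (adjusted p = 0.0798).

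**Figure D3:**
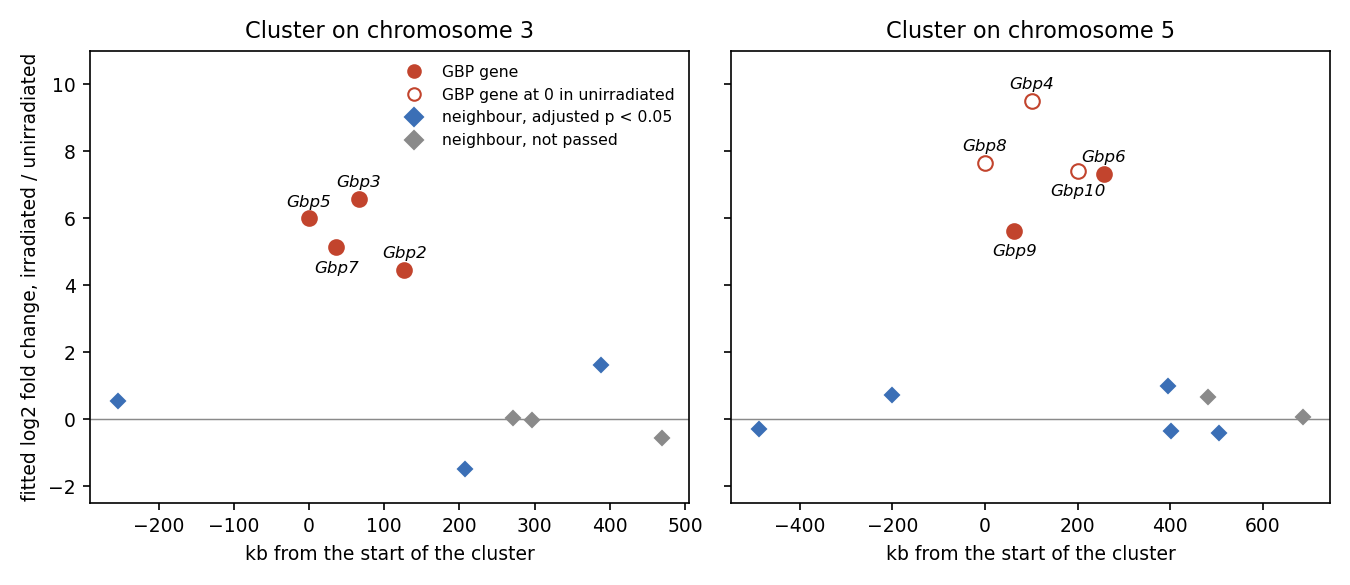
Fitted log2 fold change against distance in kilobases from the start of each cluster, for GBP genes (red circles, open where unirradiated counts are 0 and the fitted value depends on the prior count) and for neighbouring genes (diamonds, blue at an adjusted p under 0.05 and grey otherwise). GBP genes lie between 4.46 and 9.50 and neighbours between -1.49 and 1.61.

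Interferon signalling components act upstream of GBP transcription. Of 25 listed genes 22 had a row and 19 were tested. Of these 14 rose and 3 fell, where 30.4% of all tested genes rose and 30.3% fell. The median log2 fold change was 0.74, against 0.01 over all tested genes. The listed interferon alpha genes had no row, and the other ligand transcripts were rare. Ifnb1, which encodes interferon beta, had 0 and 0 against 17 and 8 counts, at least 8.39-fold higher against the floor, and Ifng, which encodes interferon gamma, had 0, 0, 1 and 0. Both were below the filter and not tested. Stat2, a transcription factor of type I signalling, rose 3.91-fold (log2 fold change 1.97, SE 0.06, edgeR adjusted p = 1.13e-201), and Irf1, an interferon regulatory factor, rose 2.43-fold (1.28, SE 0.05, edgeR adjusted p = 1.04e-118). Usp18, a feedback inhibitor at the type I receptor, rose most among listed genes of at least 1 CPM, 36.2-fold, with 6 and 6 counts against 196 and 233 (log2 fold change 5.15, SE 0.36, edgeR adjusted p = 1.36e-44). Socs3, another feedback inhibitor, fell 1.48-fold (-0.57, SE 0.09, edgeR adjusted p = 6.21e-10).

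The immunity-related GTPases (IRGs) are smaller interferon-inducible GTPases that work beside GBPs on pathogen vacuoles. They rose in 13 of 14 tested genes, where 30.4% of all tested genes rose. Their median log2 fold change was 4.30, or 3.93 with genes absent from unirradiated cells set at their lower bounds, against 6.28 and 5.77 for the 8 GBP members. Iigp1 had 0 counts before and 319 and 298 after irradiation, at least 207-fold higher (edgeR adjusted p = 1.70e-83). Gm12250, which encodes Irgb10, had 1 and 0 against 153 and 146 counts, 301 times as many after scaling to library size (exact 95% limits 53.6 and 11924, for counting error). Its fold of mean CPM was at least 51.1 without unirradiated replicate 1 and 145 without unirradiated replicate 2. The remaining tested gene, Irgq, a divergent relative, did not pass (0.07, SE 0.09, edgeR adjusted p = 0.488). The IRG and GBP values come from the same comparison and libraries.

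Other large GTPases related to GBPs by structure went both ways. In the dynamin superfamily list 5 of 15 tested genes rose and 8 fell, where 30.4% of all tested genes rose and 30.3% fell. The median log2 fold change was -0.12. The antiviral GTPase Mx1 rose 61.9-fold (log2 fold change 5.96, SE 0.20, edgeR adjusted p = 7.65e-196) and its relative Mx2 51.3-fold (5.67, SE 0.31, edgeR adjusted p = 1.68e-74). Counts of Mx1 were 22 and 6 without and 872 and 875 with irradiation, and its fold was 149.9 without unirradiated replicate 1 and 38.6 without unirradiated replicate 2. The fold of Mx2 was 85.97 without unirradiated replicate 1. Mfn1, a mitofusin that joins mitochondria, fell 1.53-fold (-0.61, SE 0.06, edgeR adjusted p = 2.61e-20). The atlastins, membrane-fusing GTPases of the endoplasmic reticulum and the closest relatives of GBPs, had log2 fold changes of 0.80 for Atl1, which rose, and -0.25 and -0.12 for Atl2 and Atl3, which fell. The atlastins were named after their values were seen.

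**Figure D4:**
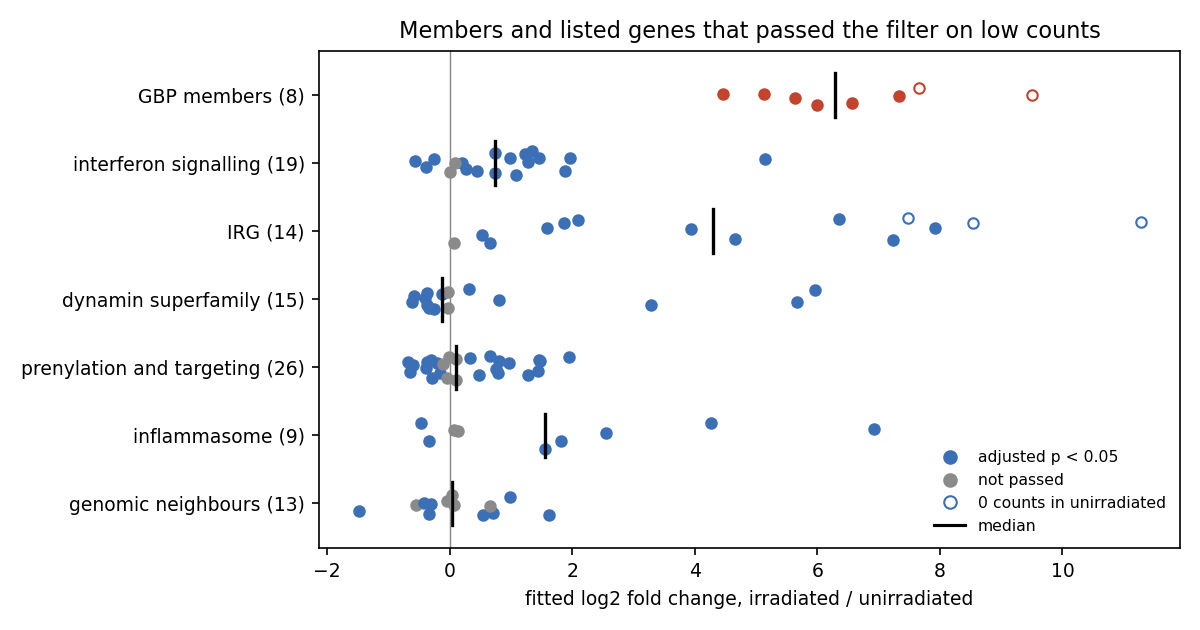
Fitted log2 fold change of the 8 members (red) and of each tested gene in the other lists (blue at an adjusted p under 0.05, grey otherwise, open where unirradiated counts are 0), with black bars for medians and the number of genes in brackets. The medians are 6.28 for the members, 4.30 for the IRGs and between -0.12 and 1.55 for the other lists.

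Genes for the prenylation and membrane targeting of GBPs were divided. All 26 were tested, 12 rose and 9 fell, where 30.4% of all tested genes rose and 30.3% fell. The median log2 fold change was 0.10. Those that rose include Map1lc3b, an LC3 protein of autophagy membranes (2.77-fold, log2 fold change 1.47, SE 0.04, edgeR adjusted p = 1.48e-257), and Trim21, a ubiquitin ligase and antibody receptor (3.86-fold, 1.95, SE 0.20, edgeR adjusted p = 5.66e-21). The prenylation enzymes were named after their values were seen. Of 6 listed, 5 fell, where 30.3% of all tested genes did. Fntb, the farnesyltransferase beta subunit, and Rce1, the CaaX protease, fell by 0.64 and 0.60 on the log2 scale (edgeR adjusted p = 7.97e-11 and 2.78e-07). Zmpste24, another protease of prenylated proteins, and Icmt, the methyltransferase that acts after cleavage, fell by 0.39 and 0.31 (edgeR adjusted p = 4.76e-13 and 2.96e-08). Fnta, the alpha subunit that both prenyltransferases share, fell by 0.15 (edgeR adjusted p = 0.00655), a call lost without irradiated replicate 1 (edgeR adjusted p = 0.156). Pggt1b, a subunit of the enzyme that adds the longer lipid, stood at 20.2 ± 0.765 before and 20.2 ± 0.126 CPM after irradiation and did not pass (SD, n = 2, edgeR adjusted p = 0.978).

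The inflammasome list holds genes that GBPs are known to engage downstream, and necroptosis genes such as Mlkl. Of the 16 with a row 9 were tested, 5 rose and 2 fell, and the median log2 fold change was 1.55. Among all tested genes 30.4% rose and 30.3% fell. Zbp1, a sensor of Z-form nucleic acid, had 1 and 5 counts before and 377 in each irradiated library (log2 fold change 6.93, SE 0.34, edgeR adjusted p = 1.86e-91). Its fold of mean CPM was 129, but 77.6 without unirradiated replicate 1 and 367 without unirradiated replicate 2. Aim2, a DNA sensor, rose 5.86-fold from 1.39 ± 0.0347 to 8.18 ± 0.268 CPM (2.55, SE 0.25, edgeR adjusted p = 8.93e-24). Mlkl, the executor of necroptosis, fell 1.38-fold (-0.46, SE 0.04, edgeR adjusted p = 1.13e-26). Casp4, the mouse caspase-11 gene whose protein senses lipopolysaccharide with the help of GBPs, rose 3.53-fold and was named after its value was seen (1.82, SE 0.11, edgeR adjusted p = 7.42e-64). Transcripts of Nlrp3, the sensor that Gbp5 is known to promote, numbered 1, 3, 3 and 19, and those of its adaptor Pycard 3, 1, 0 and 8, both below the filter.

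The genes whose profile was most like the summed members were found by the Euclidean distance of log2(CPM + 1), centred on the unirradiated mean, over the 4 libraries, among 12827 genes outside the family with a mean of at least 1 CPM. They were Spib, a lymphoid ETS transcription factor (distance 0.499), Txnip, an inhibitor of thioredoxin (0.506), Cp, ceruloplasmin (0.547), Ifit3, an interferon-induced antiviral protein (0.650), and Ccl9, a chemokine (0.692). Counts of Spib were 7 and 6 without and 1575 and 1467 with irradiation, and those of Txnip 165 and 224 against 6894 and 6307. Of these 5 genes, 3 remained among the nearest 5 without unirradiated replicate 1, and 5 under the other settings run. With 4 libraries in 2 groups, this likeness describes the size of a change in log2(CPM + 1) and the spread of replicates. The added 1 shrinks changes that start from low levels, so the folds differ more than the distances show. In mean CPM, Spib rose 235-fold, Txnip 34.3-fold, Cp 55.0-fold, Ifit3 52.8-fold and Ccl9 104-fold, against 45.5-fold for the summed members.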

How the data were processed

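The authors deposited 1 table of raw counts, with a row for each Ensembl gene and a column for each library, neither normalized nor pooled. The mm10 build and the tools DESeq2, HTSeq, HISAT and HISAT2 appear in the submitters' processing notes, without versions or roles. Not given in the sources used here are the annotation release, the strand setting and how multi-mapping reads were handled. Groups and replicate numbers follow the titles. For unirradiated replicate 2 the description field repeats the number of replicate 1, while title and column name match. Symbols, exons and coordinates (1-based) come from GENCODE M21, and 189 of 26561 genes had no symbol.

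Counts were tested with edgeR 4.0.16 (R 4.3.3), using TMM scaling, the filterByExpr filter and its robust quasi-likelihood fit (glmQLFit, glmQLFTest), with Benjamini-Hochberg adjustment over 15298 genes that passed the filter, at 0.05. CPM use TMM-scaled library sizes. The SE is the absolute log2 fold change over the square root of F. Alternatives used DESeq2 1.42.0, its size factors, no filter, each library left out, and a replicate block. The nearest-profile check under these settings was added after seeing the data. The pipeline was tested on simulated data. Members and lists were chosen with earlier results of these data known.

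Named genes are the members, other GBP genes, Irf1, Ifnb1 and Ifng, in each list the 2 highest and the lowest in log2 fold change at a mean of at least 1 CPM, and the 5 of nearest profile. Some items under this rule are not reported here. Stat2 falls under this rule, and others are said to have been named after their values were seen, apart from Nlrp3, Pycard and the cell type markers. Shared-sequence and promoter searches were added after the data were seen. Intervals and floors cover counting error only.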

Additional observations from a re-analysis of the deposited data

How the results depend on the processing

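The 8 members were called higher under each alternative run, which their choice from this contrast favours and which is no sign of stability. The summed fold of 45.5 ranged from 40.7 to 50.6 when a library was left out and from 44.9 to 45.7 under the DESeq2 size factors, the DESeq2 test's scaling and no filter. The bounds for Gbp4 and Gbp8 fell to 29.1 and 8.08 without unirradiated replicate 2, since the same floor then stands over fewer counts, as did those of Gbp10 (6.79) and Iigp1 (99.7). Of 33 named genes outside the members, recomputed under the same alternatives, Gm32051, Fnta and Krt8 lost their call under some and no called gene changed sign. Irgq and Pggt1b, not called, changed sign under some, with Irgq at -0.04 without irradiated replicate 1. Of the other counts, those of genes that fell moved most. With a library left out, the interferon signalling list had 1 to 3, the inflammasome list 1 to 2 and the genomic neighbours 2 to 4. The inflammasome list also had 1 with the DESeq2 test. The cause was not tested. Over all genes 3920 to 4712 rose and 4213 to 4660 fell. Replicate numbers were shared between groups, but same-numbered libraries did not deviate together (r = -0.005 across genes). That value cannot tell whether they were cultured or prepared together. With a replicate block 8 members were higher, 4507 genes rose and 4519 fell over all genes, and no list count changed, while the fitted ratio for Gbp6 was 161. Depth limits the unirradiated levels, of 43 counts or fewer per member and library.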
